A study of Rattus norvegicus with 47 samples.

Results

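Fibrinogen is made of 3 different chains, each encoded by its own gene: Fga for the alpha chain, Fgb for the beta chain and Fgg for the gamma chain. These 3 genes were taken by symbol from a table of 22525 rat genes counted in kidney RNA, and all 3 passed the filter on low counts that left 15868 genes. They were selected on their CPM in these libraries, with DU replicate 6 in view, so their levels, fold changes and ratios are given as descriptions. How many of them passed a threshold is given only beside the share of all tested genes, and nothing is read from it. The kidneys came from rats 12 months after pellets of 1 metal were implanted. Tantalum (Ta, 8 libraries) was the inert reference. It was set against depleted uranium (DU, 8), lead (Pb, 7), aluminium (Al, 8), cobalt (Co, 8) and tungsten (W, 8). All groups share the surgery and the pellet, and no group without a pellet was analysed here. Strain, sex, age and the place of the implant are not given in the sources used here. The labels give each of the 47 libraries its own code, which is taken here to stand for a separate animal.

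In blood, thrombin cuts the alpha and beta chains of fibrinogen, and the resulting fibrin forms the mesh of a clot, which factor XIII cross-links and plasmin dissolves. The liver makes the circulating protein. In the acute phase, interleukin-6 acts through gp130 and STAT3, together with glucocorticoids and C/EBP factors, to raise all 3 genes in hepatocytes. Injured kidney tubule cells are also known to express them. The genes are neighbours on chromosome 2, in the order Fgg, Fga, Fgb, with Fgb on the other strand.

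The 250 bases before the start of each gene are shown because the 3 genes varied together, and because the sequence CTGGGA is known as the core of the response element to interleukin-6 in fibrinogen promoters. They come from RefSeq on the GRCr8 build, in which all 3 genes were matched. They lie at chr2:170652833-170653082 on the plus strand for Fgg, chr2:170671919-170672168 on the plus strand for Fga, and chr2:170700876-170701125 on the minus strand for Fgb. Capitals mark CTGGGA or its reverse complement TCCCAG, and each sequence ends at the base before the start.
Fgg: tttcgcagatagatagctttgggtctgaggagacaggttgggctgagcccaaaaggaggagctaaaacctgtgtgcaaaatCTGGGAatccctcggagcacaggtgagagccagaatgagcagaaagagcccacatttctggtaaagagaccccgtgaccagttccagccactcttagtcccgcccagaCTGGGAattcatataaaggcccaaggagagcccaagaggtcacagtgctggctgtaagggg
Fga: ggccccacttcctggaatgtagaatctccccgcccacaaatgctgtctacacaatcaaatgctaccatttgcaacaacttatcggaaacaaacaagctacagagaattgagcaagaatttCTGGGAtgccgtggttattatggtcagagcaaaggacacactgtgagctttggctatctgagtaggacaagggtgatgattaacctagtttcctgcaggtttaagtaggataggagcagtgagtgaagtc
Fgb: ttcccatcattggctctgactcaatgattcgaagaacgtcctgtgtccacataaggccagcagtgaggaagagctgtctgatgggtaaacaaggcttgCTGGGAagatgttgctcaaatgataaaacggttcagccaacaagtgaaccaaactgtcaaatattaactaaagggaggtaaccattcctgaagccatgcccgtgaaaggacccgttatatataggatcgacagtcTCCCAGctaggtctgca
The letters CTGGGA occurred 2 times before Fgg, 1 time before Fga and 2 times before Fgb, counting both strands. In Fga the match began 130 bases before the start, and in Fgb the match on the gene's own strand began 152 bases before it. Of 33469 promoter windows of this length in the table, 25.7% held the letters at least once and 4.22% held them 2 or more times. The letters TTGCNNAA, a form of the C/EBP site, stood once before Fga (on the other strand) and once before Fgb, near CTGGGA in both, and in 9.22% of all windows. This motif did not overlap CTGGGA and was not found in the Fgg window. These matches describe the letters and show no binding.

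Libraries held 21604755 to 35775818 counts on named genes. Levels are given as CPM, counts scaled to a common library total with edgeR's TMM factors. They are not divided by gene length, so the chains are set against each other only as a ratio that is compared between libraries. In bulk RNA, fewer cells of a type and less RNA per cell cannot be told apart. DU replicate 6 stood apart from the other libraries. Of the 15868 tested genes, 2235 (14.1%) were higher in it than in all 46 others and 2201 (13.9%) were lower. The DU fold changes of the chains and the counts of genes called in DU are given with and without it. DU replicate 5 and W replicate 2 carried liver transcripts, with albumin (Alb) at 75.1 and 95.9 CPM.

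Fga, which encodes the alpha chain, was present in every kidney. In the Ta kidneys its level was 19.3 CPM at the lowest, 25.1 at the median and 56.4 at the highest. In W it was 18.7, 34.9 and 87.5 CPM, and in Co 27.2, 43.6 and 57.4 CPM. In Al it was 23.9, 40.5 and 84.4 CPM. All 4 ranges overlapped. In Pb the lowest, median and highest levels were 38.2, 66.1 and 98.6 CPM, and 5 of 7 Pb libraries lay above every Ta library. In DU, 5 libraries had 21.1 to 39.7 CPM, within the Ta range, while replicate 7 had 82.1, replicate 5 had 130 and replicate 6 had 4331 CPM. The mean ± SD of Fga was 29.2 ± 12.4 CPM in Ta (n = 8), 67 ± 21.6 in Pb (n = 7), 587 ± 1513 in DU (n = 8) and 52.5 ± 39.5 in DU without replicate 6 (n = 7).

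Fgb, which encodes the beta chain, was lower and more variable within each group. Its lowest, median and highest levels were 1.54, 4.57 and 19.6 CPM in Ta. They were 1.03, 3.92 and 29.2 CPM in W, 3.34, 4.65 and 15.7 CPM in Co, and 2.88, 5.78 and 26.2 CPM in Al. In Pb they were 7.55, 17.1 and 34.3 CPM, so that all 7 Pb libraries exceeded the Ta median and 2 exceeded every Ta library. The DU libraries held 3.08, 13.1, 8.01, 10.9, 56.0, 3888, 57.6 and 7.61 CPM in replicates 1 to 8. Replicates 5, 6 and 7 were above every Ta library and the other 5 lay within the Ta range. The mean ± SD was 6.64 ± 6.17 CPM in Ta (n = 8), 16.7 ± 9.12 in Pb (n = 7) and 22.3 ± 23.8 in DU without replicate 6 (n = 7).

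Fgg, which encodes the gamma chain, was near 1 CPM in most kidneys, with 12 to 68 counts in a Ta library. Its lowest, median and highest levels were 0.39, 0.75 and 2.25 CPM in Ta. They were 0.33, 0.96 and 3.72 CPM in W, 0.42, 1.63 and 4.004 CPM in Co, and 0.98, 1.36 and 4.503 CPM in Al. In Pb they were 0.85, 2.81 and 8.22 CPM, and 4 of 7 libraries lay above every Ta library. In DU replicates 1, 2, 3, 4 and 8 Fgg had 0.66 to 1.97 CPM, while replicates 5, 6 and 7 had 19.9, 549 and 7.15 CPM.

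**Figure D1:**
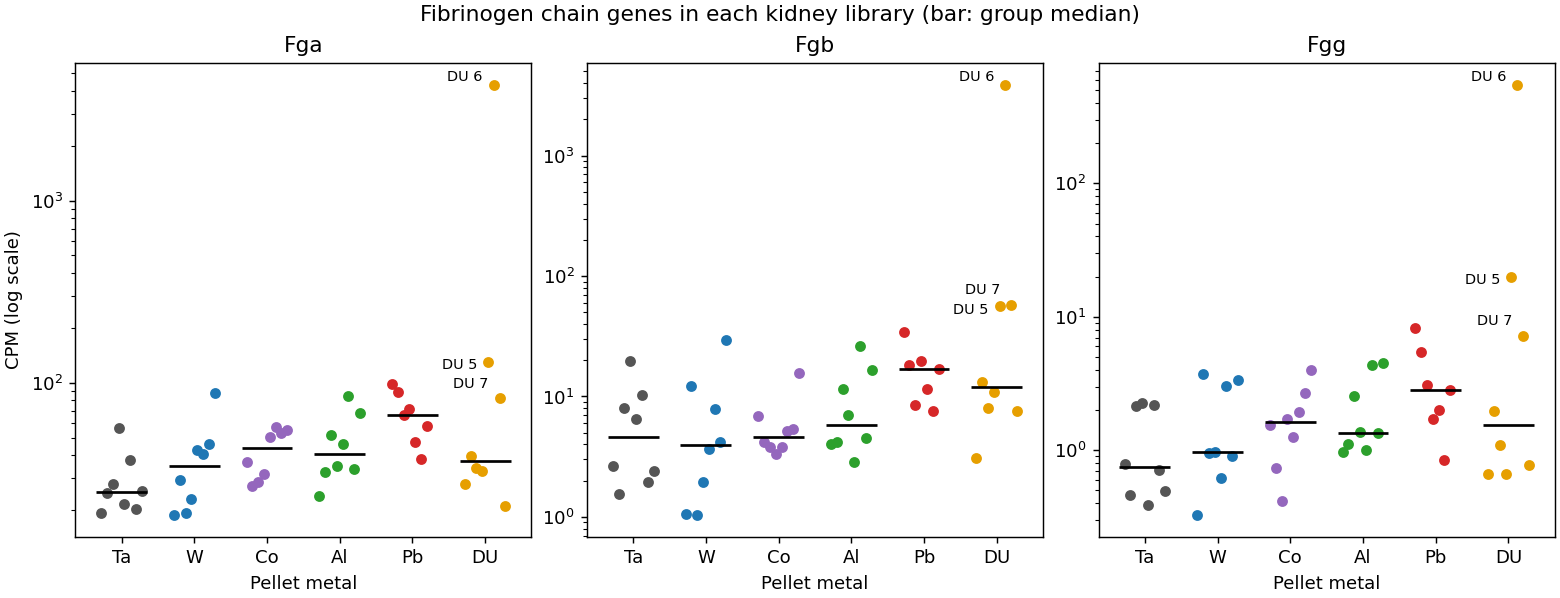
CPM on a log scale of Fga, Fgb and Fgg in each of the 47 kidney libraries, by pellet metal, with a bar at the group median. DU replicate 6 stands at 4331, 3888 and 549 CPM, above every other library, and Pb has the highest median of the 6 groups for each gene.

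Ordered by the median, the groups ran Ta, W, DU, Al, Co, Pb for Fga, W, Ta, Co, Al, DU, Pb for Fgb, and Ta, W, Al, DU, Co, Pb for Fgg. The ranges of every pair of neighbours overlapped. The difference between neighbouring means was larger than the larger SD of the pair only between Co and Pb for Fga, where the means were 42.4 and 67 CPM.

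In DU replicate 6 the 3 chains together held 237613 counts, or 1.03% of the library, against 0.0248% in DU replicate 5, the next highest library. Fga was 33.3-fold above the next highest library, Fgb 67.5-fold and Fgg 27.6-fold. Against the Ta median the folds were 173, 851 and 730. This library held 68.2% of all Fga counts of the study, 88.5% of all Fgb counts and 83.5% of all Fgg counts. Summed over the chains, the next libraries in order were DU replicates 5 and 7 with 206 and 147 CPM, then Pb replicate 1 with 141.1, W replicate 8 with 120, Al replicate 6 with 115 and Pb replicate 2 with 113. Among Ta libraries the highest sum was 78.3 CPM, in replicate 4, and the lowest of all 47 was 20.1, in W replicate 1.

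The fitted fold changes against Ta, on the log2 scale with standard errors from edgeR's quasi-likelihood fit over all genes, followed these levels. For DU they were 4.33 ± 0.76 for Fga, 6.25 ± 1.10 for Fgb and 5.94 ± 1.04 for Fgg. Without DU replicate 6 they were 0.88 ± 0.32, 1.78 ± 0.62 and 1.99 ± 0.63. The threshold was an adjusted p of 0.05, and 3 of 3 members passed it in DU with all libraries, where 15.3% of all tested genes did. Without DU replicate 6, Fgb and Fgg passed, 2 of 3, where 12.3% of tested genes did. Without DU replicates 5 and 6 and W replicate 2, 0 of 3 passed, where 11.3% of tested genes did. Nothing is read from these counts, since the same values chose the genes.

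For Pb the fold changes were 1.20 ± 0.69 for Fga, 1.32 ± 0.95 for Fgb and 1.53 ± 0.95 for Fgg. None of the 3 passed the threshold, against 53.7% of tested genes. Without DU replicate 6 the folds hardly moved, to 1.22, 1.35 and 1.57, but their standard errors fell to 0.33, 0.62 and 0.63. Fga and Fgg then passed, 2 of 3, against 55.8% of tested genes. The 6 groups share 1 estimate of the spread per gene, and the biological coefficient of variation of Fga in the fit fell from 0.86 to 0.43 when that library was left out. In W, Co and Al the fold changes lay between -0.14 and 0.85 and none of the 3 members passed in any, against 1.78% of tested genes in W, 25.8% in Co and 25.2% in Al. All 5 comparisons use the same Ta libraries.

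**Figure D2:**
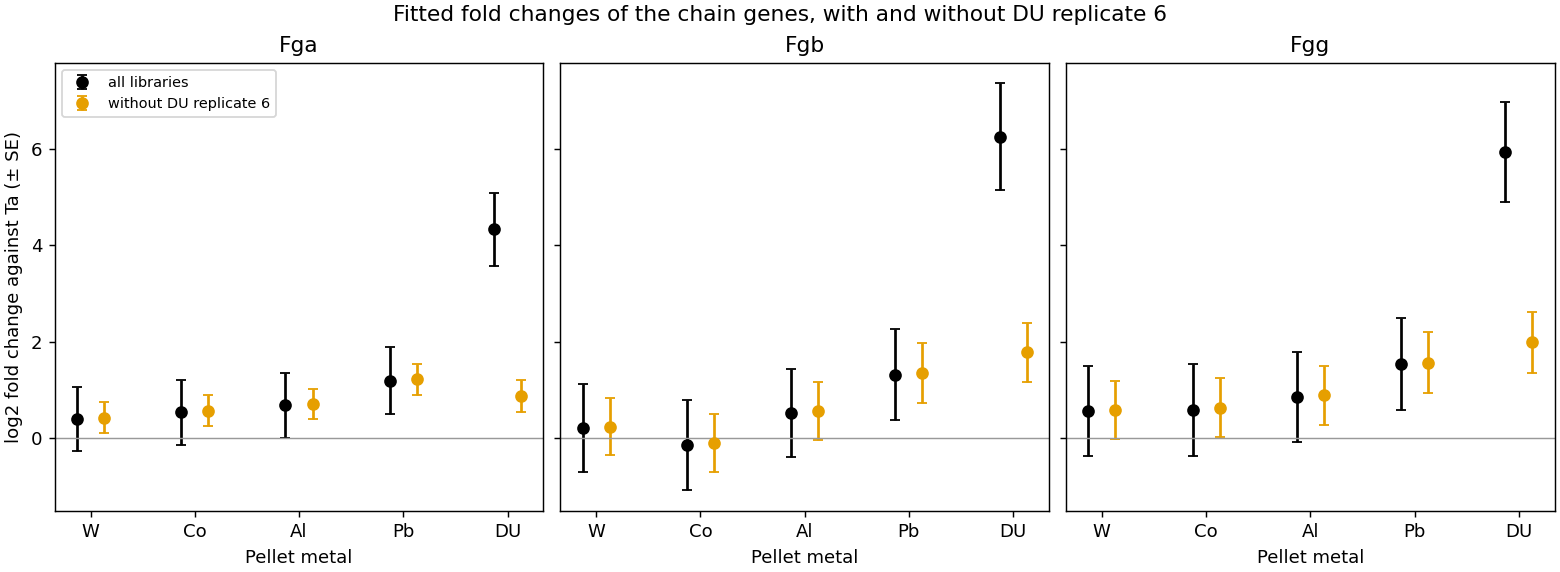
Fitted log2 fold change of each chain gene against Ta with its standard error, by pellet metal, over all libraries (black) and without DU replicate 6 (orange). The DU values fall from 4.33, 6.25 and 5.94 to 0.88, 1.78 and 1.99, and the Pb values keep their size while their error bars shorten.

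The proportions of the chains differed between libraries as well as their level. In Ta kidneys there were 0.062 to 0.35 Fgb counts per Fga count, with a mean of 0.20 ± 0.11 (SD, n = 8). The mean was 0.16 ± 0.14 in W, 0.14 ± 0.069 in Co, 0.18 ± 0.078 in Al and 0.24 ± 0.072 in Pb, where no library was above every Ta library. In DU it was 0.43 ± 0.26 with all 8 libraries and 0.36 ± 0.18 without replicate 6. The highest 3 of the 47 values were those of DU replicates 6, 7 and 5, at 0.90, 0.70 and 0.43. W replicate 2 followed at 0.42 and DU replicate 8, whose total fibrinogen was low, at 0.36. Fga made up 49.4% of the 3 chains' counts in DU replicate 6 (Wilson 95% interval 49.2% to 49.6%), 55.9% in DU replicate 7 (54.4% to 57.4%) and 63.1% in DU replicate 5 (61.9% to 64.3%). In the Ta libraries it made up 72.1% to 92.5%. The intervals cover counting error only.

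Fgg per Fga ranked the libraries in another order. It was highest in DU replicate 5 (0.15), W replicate 2 (0.13), DU replicate 6 (0.13), DU replicate 7 (0.087) and Pb replicate 1 (0.083), against 0.018 to 0.077 in Ta. DU replicate 5 and W replicate 2 are the libraries with the highest albumin. DU replicate 6, whose ratio was nearly equal to that of W replicate 2, had albumin within the Ta range. Fgg per Fgb in DU replicate 6 was 0.14, within the Ta range of 0.06 to 0.36. So in that library Fgb and Fgg exceeded Ta by a larger factor than Fga did, while the proportion of Fgg to Fgb lay within the Ta range.

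**Figure D3:**
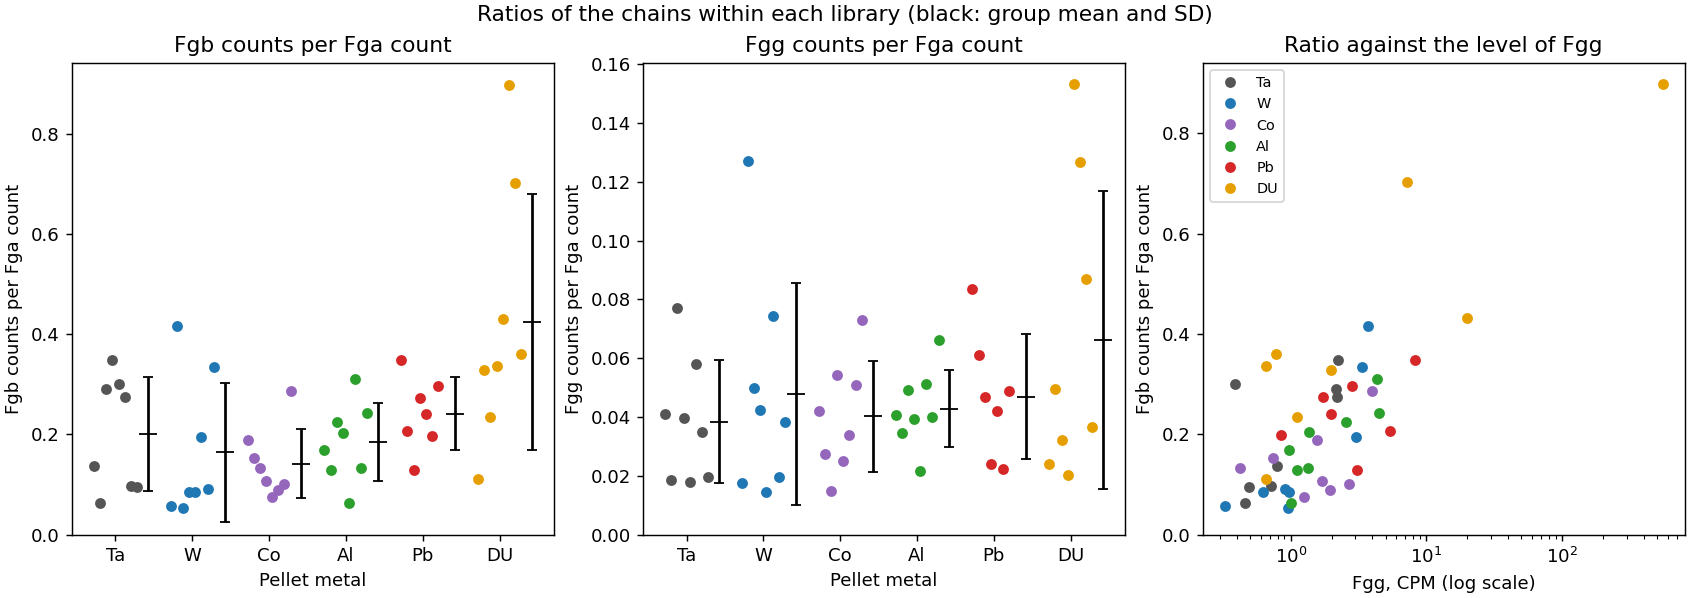
Fgb counts per Fga count and Fgg counts per Fga count in each library by pellet metal, with group mean and SD in black, and the first ratio against Fgg CPM on a log scale. DU replicate 6 has 0.90 Fgb counts per Fga count, and this ratio tends to be higher where Fgg is higher.

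The ratios to Fga moved with the level of the chain that each does not contain, while Fgg per Fgb showed little such relation. Over the 47 libraries Spearman's rho between Fgb per Fga and the level of Fgg was 0.58, and 0.55 without DU replicate 6. Between Fgg per Fga and Fgb it was 0.59, and 0.56 without that library. Between Fgg per Fgb and Fga it was -0.13, and -0.10 without that library.

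The 3 genes varied together over libraries. On log2 CPM, Pearson's r over 47 libraries was 0.91 for Fga with Fgb, 0.92 for Fga with Fgg and 0.91 for Fgb with Fgg, and Spearman's rho was 0.80, 0.81 and 0.82. Without DU replicate 6 and after each group's mean was taken out, r was 0.81, 0.80 and 0.81. Leaving out the 2 libraries farthest from the median of the first gene brought these to 0.77, 0.76 and 0.80. Within single groups r between Fga and Fgb was 0.51 in Co and 0.80 or more in each other group, with 7 or 8 libraries in each. Between Fga and Fgg it was lowest in W (0.53, rho 0.31) and was 0.74 or more elsewhere. Between Fgb and Fgg it was lowest in Co (0.68) and Pb (0.73) and was 0.76 or more elsewhere. The 3 values of a library share its RNA and its scaling, and these correlations are given as descriptions.

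The replicate numbers of the labels also divided the levels of Fga. In W, Fga was 18.7 to 29.3 CPM in libraries numbered 1 to 4 and 40.6 to 87.5 in those numbered 5 to 8. In Co it was 27.2 to 36.9 and 50.4 to 57.4 CPM, again without overlap. In Pb the order was the opposite, with 66.1 to 98.6 CPM in numbers 1 to 4 and 38.2 to 57.7 in numbers above 4. In Ta, Al and DU the 2 ranges overlapped, and those of Fgb and Fgg overlapped in all 6 groups. Kdr, a receptor of vascular endothelial growth factor in endothelium, was 39.5 to 56.3 CPM in W numbers 1 to 4 and 4.63 to 7.45 in W numbers 5 to 8. Co and Al were split in the same direction, with no overlap, whereas in Pb Kdr was 1.67 to 5.26 CPM across both. What divides the numbers is not given in the labels, and its part in the levels of fibrinogen was not tested.

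Compared within these ranges of numbers, the group medians of Fga relative to the Ta median were 0.80 and 1.89 for W, 1.14 and 2.29 for Co, and 1.28 and 2.43 for Al, for numbers 1 to 4 and above 4 in turn. They were 3.06 and 2.02 for Pb and 1.27 and 4.51 for DU, the last being 3.49 without DU replicate 6. For Fgb the ratios of medians were 3.54 and 2.57 in Pb and 1.77 and 12.8 in DU, the last being 12.6 without that library. Pb lay above Ta in both, for all 3 genes. For Fgg, the DU median was 0.60 of the Ta median in numbers 1 to 4 and 22.4 times it in numbers above 4, or 11.8 times without DU replicate 6. These Fgg medians rest on 4 libraries each, or 3 without DU replicate 6. The Ta median of Fgg was itself 1.47 CPM in numbers 1 to 4 and 0.60 CPM above 4. Above 4, DU replicates 5, 6 and 7 had 19.9, 549 and 7.15 CPM of Fgg, and replicate 8 had 0.77, within the Ta range.

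Transcripts of liver were measured in the same libraries, since hepatocytes are the main source of fibrinogen. The list of hepatocyte markers held 18 genes, and its summed level was 1470 to 1764 CPM in Ta and 1536 to 1907 in DU without replicate 6. Most of that sum came from genes the kidney itself expresses, such as Hpd and Tf. Over the 9 markers with a Ta median under 5 CPM, a subset picked after their values were seen, the sum was 2.96 to 4.71 CPM in Ta, 11.1 in DU replicate 6, 5.50 in DU replicate 7, 102.1 in DU replicate 5 and 120 in W replicate 2. In DU replicate 6 Alb was 0.41 CPM and Ahsg, which encodes fetuin-A, was at 0. Ttr, which encodes transthyretin, was 0.11 CPM there. Of the 17 tested markers 2 (11.8%) were above all 46 other libraries there and 2 (11.8%) below, against 14.1% and 13.9% of all tested genes. Serpina1, which encodes alpha-1-antitrypsin, was 5.17 CPM against at most 0.78 in Ta, and Tf, which encodes transferrin, was 3924 CPM, the highest of the 47. In the library with 4331 CPM of Fga, then, Alb, Ahsg and Ttr were at or near 0 while Serpina1, Tf and the sum of the 9 low markers were above the Ta range. The part of liver transcripts in its fibrinogen values, and in those of the Pb libraries, was not tested. W replicate 2, with the highest Alb, had 29.3 CPM of Fga, 12.2 of Fgb and 3.72 of Fgg. In DU replicate 5, Ahsg was 6.70 CPM and Ttr 2.84, beside 130, 56.0 and 19.9 CPM of the chains, and the part of liver transcripts in these values was not tested.

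Platelets carry fibrinogen and can hold RNA from megakaryocytes. The 10 platelet and megakaryocyte markers summed to 33.9 to 49.1 CPM in Ta and 43.5 in DU replicate 6. There 3 of 9 tested markers (33.3%) were above all 46 other libraries and 1 (11.1%) was below, against 14.1% and 13.9% of all tested genes. Pf4, platelet factor 4, was 7.45 CPM there against at most 5.60 elsewhere, and Ppbp, another platelet chemokine, was 0.074 CPM. The 15 macrophage and leukocyte markers summed to 125.5 to 705 CPM in Ta and 855 in DU replicate 6, where 5 of 15 (33.3%) were above all others and 0 below. There Mrc1 and Cd14, which mark macrophages and monocytes, had 87.8 and 109 CPM, the highest of all libraries, whereas Ptprc, the common leukocyte antigen, had 16.2 CPM, within the Ta range of 8.00 to 53.5. The part of leukocytes and platelets in the fibrinogen values was not tested.

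The labelled tissue carried its own markers. The 14 proximal tubule markers summed to 10683 to 20802 CPM in Ta, 9030 in DU replicate 5 and 19563 in DU replicate 7, but 1950 in DU replicate 6. In DU replicate 6, 11 of the 14 (78.6%) were below all 46 other libraries, against 13.9% of all tested genes. So were 8 of 15 markers (53.3%) of other kidney segments. Slc34a1, the sodium-phosphate transporter of the proximal tubule, was 24.8 CPM there against a Ta median of 3001, and Slc22a6, the organic anion transporter 1, was 14.8 against 736. Cubn, which encodes cubilin, was 474 CPM, within the range of the others. DU replicates 5 and 7 had 1864 and 3267 CPM of Slc34a1.

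Part of the list of interleukin-6 and glucocorticoid signalling was high in DU replicate 6. Of its 19 tested genes, 8 (42.1%) were above all 46 other libraries and 1 (5.26%) was below, against 14.1% and 13.9% of all tested genes. The other 10 lay within the range of those libraries, and the genes named next are among the high ones. Il6 itself was 22.1 CPM in that library and at most 1.42 in any other. Osmr, the oncostatin M receptor, had 125.3 CPM against a Ta median of 18.3, and Stat3, which carries the signal to the nucleus, had 312 against 108. Socs3, a feedback inhibitor that STAT3 induces, had 135.03 CPM against 4.54, and Cebpd, a C/EBP factor of the acute phase, had 431 against 22.6. In DU replicate 5 Socs3 was 27.1 CPM and Cebpd 114, each the next highest of the 47. In DU replicate 7 Socs3 was 6.77 CPM, within the Ta range of 1.20 to 26.2. The part of this signalling in the fibrinogen values was not tested.

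Of 16 tested acute phase proteins, 8 (50%) were above all 46 others in DU replicate 6, against 14.1% of all tested genes. They included the complement component C3 (8636 CPM against a Ta median of 25.7), the neutrophil lipocalin Lcn2 (8234 against 13.4), the protease inhibitor Serpina3n (1762 against 4.92) and Lbp (468 against 9.88), which binds bacterial lipopolysaccharide. Hp, which encodes haptoglobin, was 14.7 CPM there and 28.5 in DU replicate 5. Of 21 genes of tubular injury and repair, 13 were above all others, among them Havcr1, the kidney injury molecule 1, at 1179 CPM against 20.5, and Timp1, an inhibitor of matrix proteases, at 336 against 10.04.

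The partners of fibrinogen in clotting did not move in 1 direction in DU replicate 6. Of 24 tested coagulation factors and inhibitors, 5 (20.8%) were above all 46 others and 5 (20.8%) below, against 14.1% and 13.9% of all tested genes. Kng2, a kininogen, was 127.5 CPM against a Ta median of 16.0, and Procr, the endothelial receptor of protein C, was 29.5 against 3.09. F2, which encodes prothrombin, was 7.05 CPM against 30.0 and Proc, which encodes protein C, was 13.5 against 35.03. Of 10 tested genes of fibrinolysis, 5 were above all others. They included Plat, the tissue plasminogen activator, at 219 CPM against 80.1, and Plaur, the urokinase receptor, at 34.1 against 2.88. Serpinf2, which encodes antiplasmin, was below all others at 109 CPM against 408. Plg, which encodes plasminogen, was 0.15 CPM in that library. Of 14 tested receptors and cross-linking genes, 10 were above all others, among them Itgam, the alpha chain of the fibrinogen receptor of phagocytes, at 53.0 CPM against 2.73, and the transglutaminase Tgm1 at 32.0 against 1.25.

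**Figure D4:**
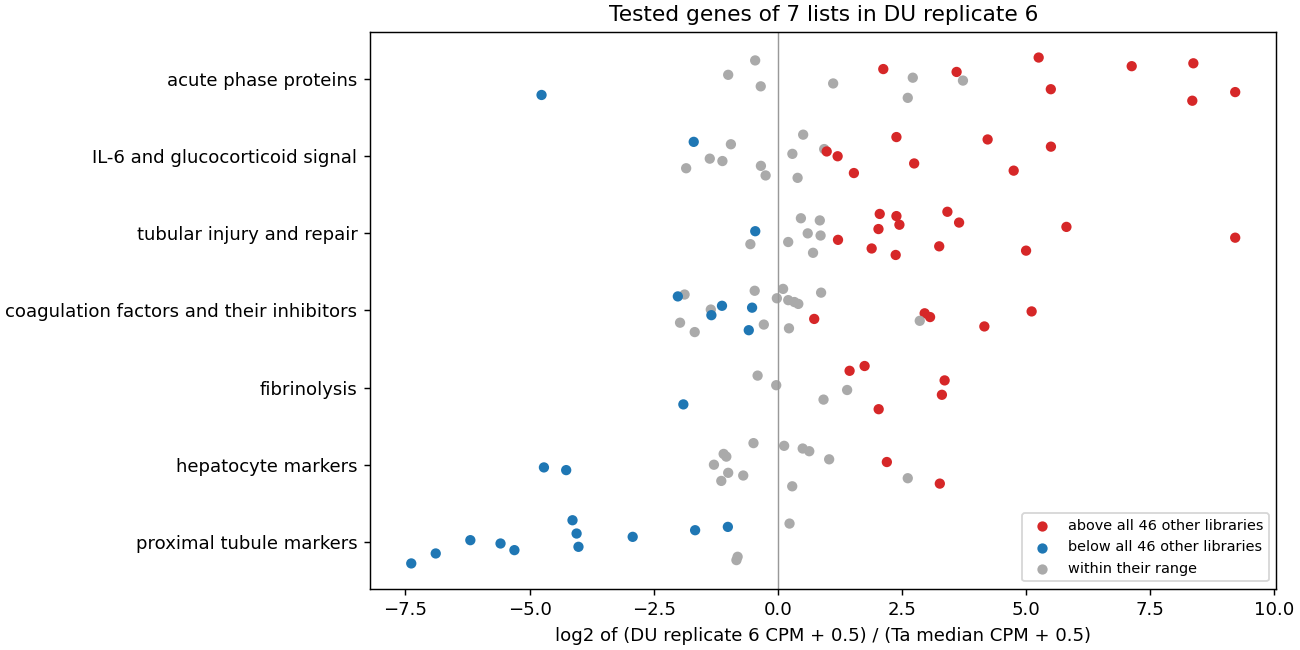
Log2 ratio of DU replicate 6 to the Ta median, with 0.5 CPM added to both, for the tested genes of 7 lists. Red points lie above and blue points below all 46 other libraries: 8 of 16 acute phase genes and 13 of 21 injury genes are above, and 11 of 14 proximal tubule markers are below.

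Tested against Ta in the fit over all genes, genes of these lists passed in DU in larger number with that library than without it. Over all tested genes 7.89% rose and 7.39% fell in DU, and 7.50% and 4.80% without it. Of 16 tested acute phase proteins 10 rose with all libraries and 3 without DU replicate 6, and none fell. The median log2 fold change of the list was 2.09 and 0.88, beside -0.0065 and 0.0095 over all tested genes. Serpina3n had a mean of 231 CPM in DU and 5.97 in Ta (log2 fold change 5.28 ± 1.01 SE, edgeR adjusted p = 0.000254, with 4 of 8 DU libraries over the Ta median), and its adjusted p was 0.238 without replicate 6. C3 and Lcn2 had adjusted p = 0.000519 and 0.000903, and 0.409 and 0.401 without it. Of 21 injury genes 5 rose and 1 fell in DU, against 0 and 2 without replicate 6. Sox9, which encodes a factor of tubule repair, fell by 0.69 on the log2 scale (adjusted p = 0.000759) and by 0.66 without that library (adjusted p = 0.0018).

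In DU, 4 of 19 genes of the interleukin-6 and glucocorticoid list rose and 3 fell, against 1 and 2 without replicate 6. The shares over all tested genes were 7.89% and 7.39%, and 7.50% and 4.80% without that library. Cebpd rose by 1.95 ± 0.46 SE (edgeR adjusted p = 0.00244, with 7 of 8 DU libraries over the Ta median), with adjusted p = 0.0581 without replicate 6. Of 24 coagulation genes 4 rose and 0 fell in DU, and 1 rose without replicate 6. Vkorc1, which recycles vitamin K, rose by 0.32 ± 0.091 (adjusted p = 0.0115) and by 0.45 without that library (adjusted p = 3.66e-06). Of 10 genes of fibrinolysis 2 rose and 2 fell, against 1 and 1 without replicate 6. Plau, which encodes urokinase, fell by 0.59 (adjusted p = 0.00109, with 8 of 8 DU libraries under the Ta median) and by 0.59 without replicate 6 (adjusted p = 0.00138). Plaur rose from a mean of 3.05 to 9.27 CPM (adjusted p = 0.00244), and by 0.94 on the log2 scale without replicate 6 (adjusted p = 0.0389). Among receptors and cross-linking genes Tgm1 and Icam1 rose, 2 of 14, and 0 did without replicate 6.

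Some markers of other cell types passed the test in DU. Of 17 hepatocyte markers 3 rose and 1 fell, and the counts were 3 and 1 without replicate 6. Over all tested genes 7.89% rose and 7.39% fell, and 7.50% and 4.80% without it. Serpina1, another marker that rose, had an edgeR adjusted p of 0.00996, and 0.0758 without DU replicate 5. Alb rose by 3.71 ± 1.11 on the log2 scale (edgeR adjusted p = 0.0178, with 4 of 8 DU libraries over the Ta median), and its adjusted p was 0.863 without DU replicate 5, 0.33 with the replicate block and 0.57 with limma voom and quality weights. Of 15 macrophage and leukocyte markers 3 rose in DU, and 0 passed without replicate 6. Cd14 was the one with the smallest adjusted p (0.00333, and 0.204 without replicate 6). The median log2 fold change in DU was -0.020 over 9 platelet markers and -0.15 over 14 proximal tubule markers, and both turned in sign without replicate 6, to 0.086 and 0.026.

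In Pb, where the 3 chains had their highest medians, more of the signalling genes fell than rose. Over all tested genes 24.5% rose and 29.2% fell. Of 19 genes of the interleukin-6 and glucocorticoid list 2 rose and 8 fell, with a list median of -0.51 against -0.067 over all tested genes. Jak1, a kinase of the gp130 receptor, fell by 1.20 on the log2 scale (edgeR adjusted p = 3.47e-11), Il6st, which encodes gp130, by 2.04 (adjusted p = 1.22e-08) and Nr3c1, the glucocorticoid receptor, by 2.03 (adjusted p = 3.29e-10), and for each all 7 Pb libraries were under the Ta median. Of the acute phase proteins 1 of 16 rose and 1 fell: Hp by 1.22 ± 0.45 (adjusted p = 0.0184, with 7 of 7 Pb libraries over the Ta median) and Cfb, complement factor B, by -0.85 ± 0.35 (adjusted p = 0.0358). Leaving out Ta replicate 4 ended the call of Cfb (adjusted p = 0.149), as did 5 other libraries, each left out alone. Of 21 injury genes 4 rose and 2 fell, the keratin genes Krt19 and Krt8 among those that rose, by 1.16 and 0.71 (adjusted p = 4.65e-06 and 0.000751). Of 24 coagulation genes 4 rose and 5 fell: Vkorc1 and Proc rose by 0.74 and 0.90 (adjusted p = 9.23e-09 and 7.12e-06), and Thbd, thrombomodulin of endothelium, fell by 2.25 (adjusted p = 1.02e-05). Of 10 genes of fibrinolysis 4 rose and 4 fell, and of 14 receptors and cross-linking genes 1 rose and 7 fell. In Pb, markers of endothelium and leukocytes moved with these lists: Kdr, Pecam1 and Ptprc fell by 3.77, 2.23 and 1.87 (adjusted p = 2.07e-06, 3.82e-06 and 0.000777), and their part in the lists was not tested. Of 17 hepatocyte markers 5 rose and 0 fell in Pb, Ambp and Apoh among them, by 1.06 and 1.32 (adjusted p = 6.59e-08 and 6.73e-05). Of 9 platelet markers 2 rose, Itga2b among them.

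In Co and Al the same signalling list had 0 genes that rose and 7 of 19 that fell in each. Over all tested genes 13.6% rose and 12.2% fell in Co, and 12.8% and 12.4% in Al. Jak1 fell by 0.58 in Co and by 0.62 in Al (edgeR adjusted p = 0.000341 and 8.12e-05), and Nr3c1 by 0.91 and 0.82 (adjusted p = 0.00142 and 0.00265). Markers of endothelium and leukocytes fell beside this list. In Al, Kdr, Pecam1 and Cdh5 fell by 1.65, 1.02 and 0.92 (adjusted p = 0.0198, 0.0282 and 0.0348), and in Co, Ptprc and Cdh5 fell by 1.26 and 0.93 (adjusted p = 0.0294 and 0.0327). Their part in the list was not tested. Of acute phase proteins 1 of 16 passed in Co, A2m, which fell by 1.78 (adjusted p = 0.0412, lost without any 1 of 7 libraries, with adjusted p = 0.41 without Ta replicate 4), and 0 in Al. In W, where 1.78% of all tested genes passed, 1 gene of the 11 lists did. This was Alb, which rose by 4.21 ± 1.13 (edgeR adjusted p = 0.0461, with 5 of 8 W libraries over the Ta median). It lost the call without W replicate 2 (adjusted p = 0.232), and without any 1 of 9 other libraries.

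Of the 10 genes whose level followed the chains most closely, 6 were in the lists of tubular injury or the acute phase. Likeness was Spearman's rho with the mean log2 CPM of the 3 chains over 47 libraries, ranked over 12899 genes with a mean of at least 1 CPM. The highest was Havcr1 (rho 0.94), followed by Spp1, osteopontin (0.89), Serpina3n (0.89), Lcn2 (0.88), Lbp (0.87), the cytokine Il19 (0.87), Tnfrsf12a, the receptor of TWEAK (0.87), Clu, clusterin (0.86), Sbno2 (0.86) and Tmsb10, thymosin beta-10 (0.86). Il19, Tnfrsf12a, Sbno2 and Tmsb10 are in none of the lists. The median over all ranked genes was -0.031. The same 10 genes led without DU replicate 6, where Havcr1 had 0.93. After each group's mean was taken out, 7 of the 10 remained, led by Serpina3n (0.91) and Havcr1 (0.89), and Lif, a cytokine that signals through gp130 (0.81), C3 (0.80) and Tpm1, a tropomyosin (0.80), joined them. Of the last 10, 7 remained without DU replicate 6.

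The same likeness was computed for every tested gene of the lists, as a description. The median rho over all libraries was 0.57 for 21 injury genes, with 12 of them above 0.5, and 0.53 for 16 acute phase genes, with 8 above 0.5. It was 0.11 for 24 coagulation genes, with Kng2 highest (0.77), and 0.17 for 17 hepatocyte markers, where Alb had 0.22. Among the 19 signalling genes the median was -0.052, and 0.17 after centring and without DU replicate 6. Socs3 (0.76) and Cebpd (0.69) were high in it. Stat3 was -0.10, and 0.28 after that change, and Ppara, a receptor that represses fibrinogen genes in liver, was lowest over all libraries (-0.61). Markers of the proximal tubule had a median of -0.18, with Aqp1, the water channel aquaporin-1, at -0.74. The 15 markers of other kidney segments had a lower median of -0.41, with Slc12a1, the salt transporter of the thick ascending limb, at -0.60. After centring and without DU replicate 6 the medians were 0.56 for injury genes, 0.41 for acute phase genes, -0.28 for proximal tubule markers and -0.28 for those of other segments. These values describe the same libraries and share their scaling.

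**Figure D5:**
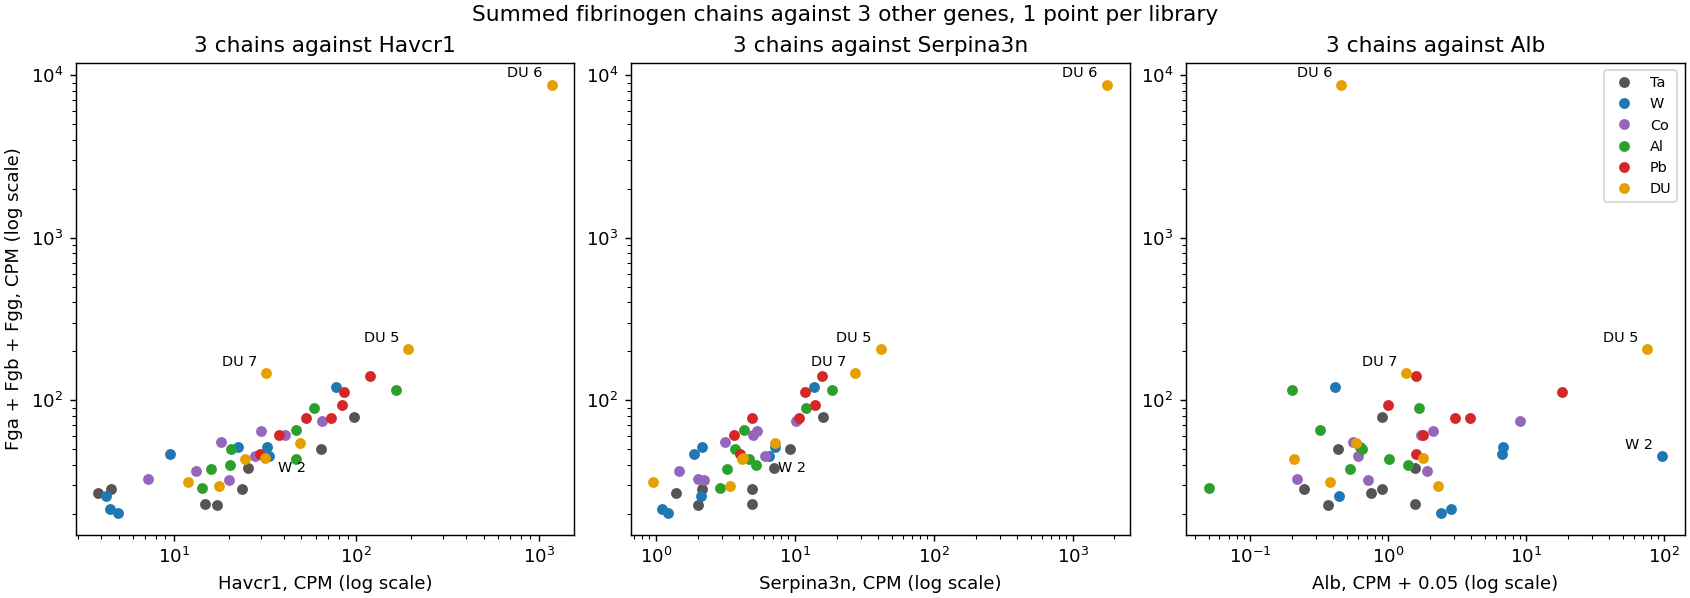
Summed CPM of the 3 chains against CPM of Havcr1, Serpina3n and Alb in each library, all on log scales, with 0.05 added to Alb. Libraries with more Havcr1 and Serpina3n have more fibrinogen RNA, while DU replicate 6 has 0.41 CPM of Alb and W replicate 2, with 95.9 CPM, has 45.1 CPM of the 3 chains.

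In single libraries the likeness had exceptions. Havcr1 was 1179 CPM in DU replicate 6 and 193 in DU replicate 5, the 2 libraries with the highest sum of chains. In DU replicate 7, next in that sum with 147 CPM, Havcr1 was 32.1 CPM, below the 97.5 of the highest Ta library. Serpina3n in the same library was 27.2 CPM, above the highest Ta value of 15.9, and Lcn2 was 131.2 against 124.8. In Pb, Havcr1 was 29.6 to 119 CPM with a median of 72.9, against 3.86 to 97.5 with a median of 20.5 in Ta, and the ranges overlapped. Havcr1 in Pb was also divided by number, with 72.9 to 119 CPM in numbers 1 to 4 and 29.6 to 52.9 above 4, as Fga was.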

How the data were processed

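Total RNA of kidney was sequenced in 47 libraries. The submitters' processing notes name STAR 2.7.2a, featureCounts of Subread 1.6.4 and the genome build mRatBN7.2. The annotation, the strand setting and the handling of reads with several matches are not given in the sources used here. The deposited table holds whole read counts, which were not normalized. Lines that name no gene (29, with 0.0317% of counts) were left out.

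The 47 libraries were fitted together in edgeR 4.0.16 (R 4.3.3; TMM, filterByExpr, quasi-likelihood test of each metal against Ta), with Benjamini-Hochberg adjustment over the genes tested. Since the table gives no gene lengths, no value is per length. In simulated counts 81.8% to 95.5% of genes changed 4-fold were found among 15868, with 5 to 7 false calls. The simulation took its spread from the trend over all genes. It held no outlying library and no division by replicate number. It gives no rate for the chain genes, whose coefficient of variation was 0.86 to 1.12 in the fit, against a common value of 0.35. P-values set the difference between groups against the spread between the libraries of a group. In the main fit that spread also holds the division by replicate number, which was not modelled, and DU replicate 6. The members, lists and tests were chosen with earlier results of these data known. Named genes were the members, up to 3 genes per list and comparison by smallest adjusted p, the 10 most alike by each of 2 measures, and defining markers. Genes named in DU replicate 6 were otherwise chosen after their values were seen. Coordinates are those of the RefSeq promoter table on GRCr8, not the build of the counts. Alternatives were DESeq2 1.42.0, limma 3.58.1 (voom with quality weights), other scaling factors and filters, a replicate block, the 2 groups alone and each library left out. Leaving out W replicate 2 and DU replicate 5, which had Alb above 50 CPM, with or without DU replicate 6, was chosen after seeing the data. Results for some genes of the lists are not reported here.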

Additional observations from a re-analysis of the deposited data

Results flagged for a closer look

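In each group of 7 or 8 libraries the highest and lowest value of each chain and of the chain ratios was compared with its nearest neighbour. A value is listed where that gap took more of the group's range than Dixon's 95% limit for its number of libraries. Of 30 such groups 6 had a listed library. Chance lists about 1 in 20 groups where values are normally distributed. CPM was not put on a log scale here and leaned to high values, with a mean of 6.64 and a median of 4.57 for Fgb in Ta. The rate by chance is therefore not known, and all 6 listed values are high ones. The genes were also chosen with DU replicate 6 in view and its 3 entries restate that choice, so the number is not read against chance. DU replicate 6 was far above the next DU library in Fga (4330 CPM against 130), Fgb (3890 against 57.6, a gap of 0.986 of the range) and Fgg (549 against 19.9, 0.965). W replicate 8 stood above the other W libraries in Fga (87.5 CPM against 46.3, 0.6 of the range) and Fgb (29.2 against 12.2, 0.605). Co replicate 8 stood above the other Co libraries in Fgb (15.7 CPM against 6.94, 0.709). Neither Fgb per Fga nor Fgg per Fga had a listed library in any group.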

How the results depend on the processing

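Fibrinogen members called against Ta depended on the fit. The share of all tested genes called in the same fit is in parentheses. For Pb, 0 were called over all libraries (53.7%), 2 by DESeq2 (55.4%), 3 by limma voom (61.6%), 1 with the replicate block (53.6%), 3 with only Pb and Ta fitted (59.3%), and 2 with W 2, DU 5 and DU 6 left out (55.7%). For DU, 3 were called (15.3%), 2 by DESeq2 (16.3%), where Fga was not called, 1 by limma voom (28.7%) and 0 with W 2, DU 5 and DU 6 left out (11.3%). For Al, 0 were called (25.2%) and 1 with only Al and Ta fitted (32.1%). Leaving out single libraries gave 0 to 2 for Pb (2 without DU replicate 6, 0 otherwise) and 2 to 3 for DU. By DESeq2, whose default replaces outlying counts in groups of this size, the DU fold changes were 0.84, 1.67 and 1.89 for Fga, Fgb and Fgg. Of all tested genes, 283 passed in W, against 764 by DESeq2, 166 with upper quartile factors, 117 without a filter, 562 with the strict filter (1 CPM in 7 libraries), 917 without W 2 and DU 5 and 1635 without DU 6 as well. Leaving out single libraries gave 5 (without W replicate 5) to 977 (without DU replicate 6). In DU 2424 passed and 4548 by limma voom. Fgb in W and Co, where it was not called, changed sign. In W it was 0.22, -0.16 by limma voom, -0.11 with the replicate block and -0.54 (without W replicate 8) to 0.72 (without Ta replicate 4) with single libraries left out. In Co it was -0.14, 0.28 by limma voom, and -0.51 (without Co replicate 8) to 0.37 (without Ta replicate 4) with single libraries left out, being above 0 also without Ta replicate 6 (0.013). Kng1 in DU, 3.70 over all libraries, was -0.26 by limma voom and -0.89 with W 2, DU 5 and DU 6 left out. The causes were not tested.

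Replicate numbers did not pair libraries: deviations from the group means correlated with a median of 0.012 (-0.35 to 0.36) in 115 pairs of libraries that share a number. With the replicate block the DU fold changes were 2.27, 3.58 and 3.71 for Fga, Fgb and Fgg, and 3 were called. Depth limits Fgg, which had 8 counts in its lowest library.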
